A study of Mus musculus with 4 samples.

Results

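Insulin and the insulin-like growth factors (IGFs) act on cells through a small set of ligands, receptors, adaptors and binding proteins. The 10 genes described here are the ligand Igf1, the receptors Igf1r and Insr, the adaptors Irs1, Irs2 and Irs4, and the binding proteins Igfbp2, Igfbp3, Igfbp4 and Igfbp5. They were found by gene symbol among the 55397 genes listed in the deposited table, and each symbol stood on a single row. Igf2 and Igf2r were left out by the rule. The set was chosen on earlier results of the same comparison between conditions, so the differences between conditions in these 10 genes are given below as a description. Calls by the threshold are counted for them only beside the share of all genes called, with no p-value, and support nothing.

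The libraries came from primary mouse embryonic fibroblasts (MEFs) of C57BL/6J embryos at E13.5 that carried floxed Prox1 alleles, Prox1(fl/fl). Prox1 encodes a transcription factor of hepatocytes. All cultures received a lentivirus with the 4in1 factors (LV.4TF), which drive fibroblasts toward a hepatocyte fate, and were moved to hepatocyte culture medium. The cells labelled Prox1 KO received cre-GFP (FUW-GFP-Cre) as well, and the controls received dcre-GFP (FUW-GFP-dCre), a non-functional form of the recombinase. RNA of the whole culture was taken at day 14, with 2 libraries per condition, numbered replicate 1 and replicate 2. The comparison addresses how loss of Prox1 alters the cells during this conversion. Controls and Prox1 KO cells share the floxed alleles, the 4in1 factors, a GFP virus and the medium, and the lentiviral Cre is not restricted to one cell type. The methods state that MEFs were prepared from the limbs of several embryos pooled together. The methods adjust bulk MEF data for the MEF line of origin, and Xist levels, given with the replicate comparison below, separated replicate 1 from replicate 2 in both conditions. The labels name no line or culture for a library. The p-values speak for these 4 libraries only, with an error that limma draws mostly from a trend over all genes.

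IGF1 binds its receptor tyrosine kinase IGF1R, and insulin binds the closely related INSR. The activated receptors phosphorylate the insulin receptor substrates, which carry the signal to the PI3K-AKT and RAS-MAPK pathways. The IGF binding proteins are secreted, hold IGFs in the extracellular space and control how much ligand reaches the receptor. In adult liver, hepatocytes are the main source of circulating IGF1, while fibroblasts secrete IGF1 and several binding proteins locally.

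The values are normalized counts, that is, the reads of a gene scaled by a size factor for its library. The 4 libraries held between 42469031 and 48524008 reads on genes, so counting error is small for the binding proteins and large for Irs4. The targeted gene, Prox1, was at 60.6 and 25.5 normalized counts in the controls and at 72.7 and 61.6 in the libraries labelled Prox1 KO. Its count was not lower in the latter (log2 fold change 0.75, SE 0.27, limma adjusted p = 0.0936). Cre removes the second exon, and a count over the whole gene keeps reads from the other exons. It therefore does not check the labels, and every direction below rests on them. Fibroblast markers were present in all libraries, with summed levels of 927836 and 1104970 normalized counts in the controls and 800305 and 1008170 in the Prox1 KO libraries, and 5 of 10 were lower in Prox1 KO by limma's adjusted threshold. Of 11 hepatocyte markers 9 passed the filter and 7 of them were lower, with sums of 27009 and 29619 against 19608 and 21560 normalized counts. Alb (log2 fold change −0.10, limma adjusted p = 0.158) and Apoa2 (−0.17, limma adjusted p = 0.756) did not pass. By the same threshold, 6.29% of all genes tested were lower and 5.09% were higher. The mature hepatocyte genes Tat and Cyp3a11 were near 0 in every library, at no more than 5 reads. Of the 5 cycling markers, 4 were lower. Among epithelial and biliary markers 5 of 8 were lower. The myocyte marker Des and the endothelial marker Kdr were higher, while Myod1, Myog, Pecam1 and Cdh5 were at no more than 12 reads. No adipocyte or macrophage marker passed the threshold, and Adgre1 was at 0 in all 4 libraries. In RNA of a whole culture, fewer cells of a type and less RNA per cell cannot be told apart, and the part of these markers in the results below was not tested.

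The sequences before the annotated start are shown for 5 genes. The 3 adaptors are shown because they share an element. The binding proteins Igfbp4 and Igfbp5 are shown because they were lower in Prox1 KO by a similar factor in both replicate pairs. RefSeq on GRCm38.p6 gave a start for 9 of the 10 genes, all but Insr, and 10 windows of 250 bases before a start, since Igfbp2 has an alternative one. The 5 windows, all on the strand of the gene, are chr1:82291440-82291689 for Irs1 (minus strand), chr8:11008930-11009179 for Irs2 (minus strand), chrX:141725218-141725467 for Irs4 (minus strand), chr11:99040994-99041243 for Igfbp4 (plus strand) and chr1:72874866-72875115 for Igfbp5 (minus strand). Capitals mark every match, on either strand, to the GC box GGGCGG, the CCAAT box, the E box CACGTG, the insulin response core TGTTTTG and the TATA box TATAAA, and a search for the FOXO motif GTAAACA found none. All 5 read 5′ to 3′ and end just before the start annotated by RefSeq:
Irs1: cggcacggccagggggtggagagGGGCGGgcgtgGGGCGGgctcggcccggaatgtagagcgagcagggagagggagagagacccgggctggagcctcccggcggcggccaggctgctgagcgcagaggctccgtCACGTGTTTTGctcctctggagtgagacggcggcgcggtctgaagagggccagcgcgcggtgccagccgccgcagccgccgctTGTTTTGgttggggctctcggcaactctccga
Irs2: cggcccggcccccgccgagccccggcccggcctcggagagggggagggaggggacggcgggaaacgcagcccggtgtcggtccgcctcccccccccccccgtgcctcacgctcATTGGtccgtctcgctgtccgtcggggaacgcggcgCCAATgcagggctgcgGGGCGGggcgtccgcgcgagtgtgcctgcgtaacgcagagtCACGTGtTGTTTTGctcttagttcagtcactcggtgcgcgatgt
Irs4: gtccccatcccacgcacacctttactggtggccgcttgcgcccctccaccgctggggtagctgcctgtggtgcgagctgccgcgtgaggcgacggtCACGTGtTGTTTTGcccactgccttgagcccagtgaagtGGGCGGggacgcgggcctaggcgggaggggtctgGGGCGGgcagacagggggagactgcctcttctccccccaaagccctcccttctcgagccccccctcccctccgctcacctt
Igfbp4: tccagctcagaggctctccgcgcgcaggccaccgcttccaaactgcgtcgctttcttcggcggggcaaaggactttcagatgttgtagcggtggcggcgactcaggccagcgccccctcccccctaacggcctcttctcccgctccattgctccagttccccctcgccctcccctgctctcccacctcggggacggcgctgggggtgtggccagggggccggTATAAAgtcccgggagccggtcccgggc
Igfbp5: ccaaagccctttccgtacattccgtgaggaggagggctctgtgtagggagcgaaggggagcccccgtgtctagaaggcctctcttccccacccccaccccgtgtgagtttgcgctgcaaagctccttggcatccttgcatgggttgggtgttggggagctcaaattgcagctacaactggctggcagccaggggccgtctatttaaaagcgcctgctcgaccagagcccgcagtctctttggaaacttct

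The 3 adaptor windows share a palindromic E box with an insulin response core that overlaps it or follows closely. The E box is the motif of basic helix-loop-helix factors such as MYC and USF. The core was first described in insulin-regulated liver promoters. In Irs1 the motifs overlap by 2 bases, and in Irs2 and Irs4 a single base separates them. Irs2 and Irs4 hold the same 17 bases, GTCACGTGTTGTTTTGC, which begin 46 bases before the Irs2 start and 156 bases before the Irs4 start. That run was the longest in common among the 36 pairs of member genes, and of all 32851 windows of this length in the RefSeq table only these 2 hold it on either strand. An E box and a core after it were counted together only from an overlap of 2 bases to a single base between them. In this form they occurred in 7 of the 32851 windows (0.0213%), and 3 of the 7 were those of Irs1, Irs2 and Irs4. Singly the motifs are more frequent, with the E box in 6.02% of all windows and the core in 5.56%. The E box, the core and the shared run were picked after these sequences were seen, and the spacing allowed is that of these 3 genes. The 3 of 7 therefore support nothing, and a match is a description of the letters and not a site of binding.

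The other motifs were unevenly spread over the genes. The GC box, in 32.7% of all windows, was in 5 of the 10, namely Igf1r, Irs1, Irs2, Irs4 and the first Igfbp2 window. The CCAAT box, in 33.8% of all windows, was in those of Igf1 and Irs2. A TATA box, searched as TATAAA only, was in 12.4% of all windows. Of the 10 it was found only for Igfbp4, beginning 28 bases before the start. Related letters, such as TATATAT in the Igfbp3 window and TATTTAAAA in that of Igfbp5, were not searched. The FOXO motif, searched as GTAAACA only, was in 3.17% of all windows and in none of the 10. No other form of a FOXO site was searched under that name, so the absence is one of these letters. The RefSeq starts of Irs2 and Igf1r lie 471 and 570 bases before the genes as annotated by GENCODE. Those of Igf1 and of the second Igfbp2 window lie 2846 and 884 bases inside their genes. Those of Irs4 and Igfbp5 lie 46 and 19 bases inside, so the last bases of these 2 windows fall within the gene as annotated by GENCODE. These windows therefore belong to 1 annotated start each.

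Binding proteins were by far the most abundant of the 10 transcripts per length of exon. Igfbp3 stood first, with 7516 to 9861 normalized counts per kilobase over the 4 libraries. Igfbp4 followed at 3899 to 5561 per kilobase, Igfbp5 at 3538 to 5677 and Igfbp2 at 2988 to 3702. The order of Igfbp4 and Igfbp5 switched between libraries, whereas Igfbp5 was above Igfbp2 per kilobase in each of the 4, although their ranges overlapped. The receptor Igf1r was at 471 to 501 per kilobase, above the adaptors Irs2 at 293 to 373 and Irs1 at 296 to 329, whose ranges overlapped. The insulin receptor Insr was at 163 to 193 per kilobase, below Igf1r in each library. Igf1, at 29.3 to 48.6, and Irs4, at 1.35 to 7.26 per kilobase, were the lowest and overlapped with none of the others. The exonic length is the union over annotated transcripts, so a gene that uses a short isoform would read lower on this scale.

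**Figure D1:**
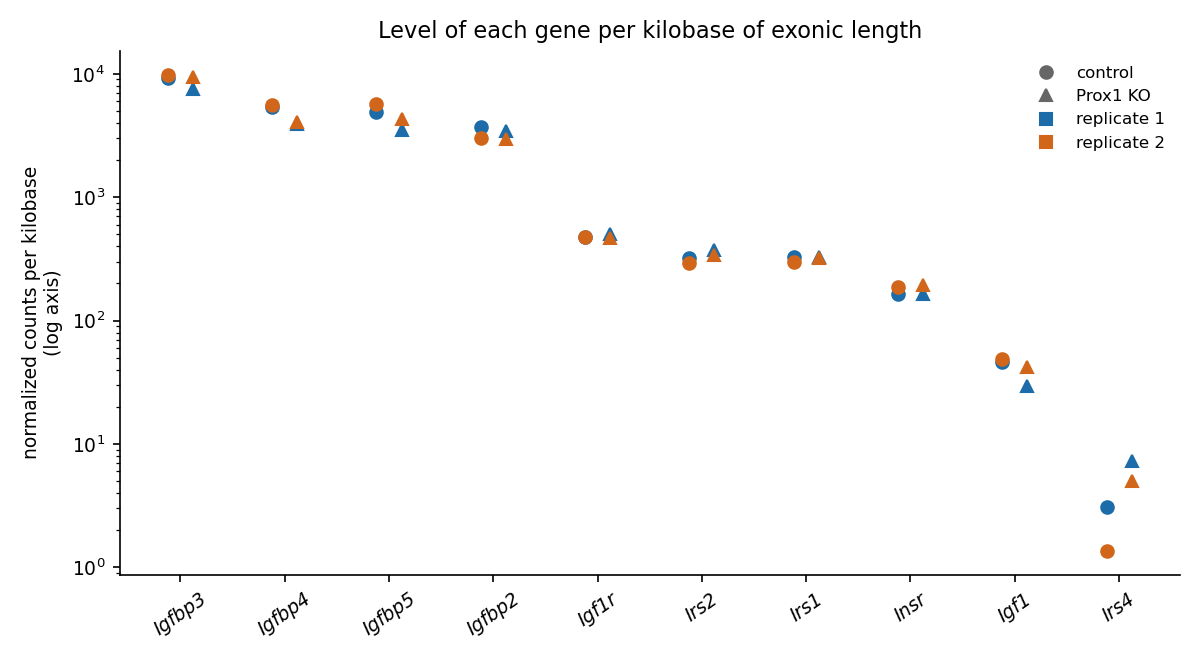
Normalized counts per kilobase of exonic length (log axis) for the 10 genes, ordered by their mean, with circles for control and triangles for Prox1 KO libraries and colours for the replicate number. The 4 binding proteins lie between 2988 and 9861 per kilobase in every library, and Irs4 lies at or below 7.26.

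In the libraries labelled Prox1 KO, the ligand and 3 of the 4 binding proteins were lower than in the controls, 2 of the 3 adaptors were higher, and neither receptor passed the threshold. Of the 10 genes 2 passed the threshold as higher (Irs2 and Irs4), where 5.09% of all 15809 genes tested did. Another 4 passed it as lower (Igf1, Igfbp3, Igfbp4 and Igfbp5), where 6.29% of all genes did. Both Prox1 KO libraries lay above both controls in 2 genes (21.8% of all genes) and below both in 3 (22.6% of all genes). Since the comparison itself chose the genes, nothing is read from these counts. The median log2 fold change was −0.02 over the 10 genes and −0.0022 over all genes tested. The calls need the pairing of libraries by replicate number: without it limma called 0 of the 10, and 4 had an unadjusted p under 0.05. DESeq2 with the pairing called Igfbp4 and Igfbp5 only, and limma after quantile normalization did not call Igf1 and Igfbp3.

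Igf1 (chr10:87858265-87937042, plus strand, GRCm38), the secreted ligand of IGF1R, was at 456 and 481 normalized counts in control replicates 1 and 2 and at 290 and 420 in the Prox1 KO replicates. Both Prox1 KO values lay below both controls, but most of the difference came from replicate 1. The log2 fold change was −0.65 in pair 1 and −0.19 in pair 2, and −0.42 (SE 0.11) in the fit over both. The 279 reads of Prox1 KO replicate 1 against 497 in its control gave a ratio of normalized counts of 0.635 (95% exact interval 0.547 to 0.737, counting error only). In pair 2 the ratio was 0.874, with an interval of 0.764 to 0.999 that nearly reaches 1.

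Igf1r (chr7:67952827-68233668, plus strand), the receptor for IGF1, was at 7999 and 8029 normalized counts in the controls and at 8418 and 7905 in Prox1 KO. Insr (chr8:3122061-3279617, minus strand), the insulin receptor, was at 2246 and 2574 in the controls and at 2260 and 2647 in Prox1 KO. For both receptors the conditions overlapped. The log2 fold change of Igf1r was 0.03 (SE 0.04), positive in pair 1 (0.07) and negative in pair 2 (−0.02), and its 95% interval ran from −4.26% to 8.23% of the control level. For Insr it was 0.02 (SE 0.05), with an interval from −5.29% to 9.25%.

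The insulin receptor substrates dock on the activated receptors and recruit PI3K. Irs1 (chr1:82233101-82291416, minus strand) was at 3002 and 2707 normalized counts in the controls and at 3009 and 2941 in Prox1 KO. The conditions overlapped, and the log2 fold change was 0.06 (SE 0.05), with 0.00 in pair 1 and 0.12 in pair 2. Irs2 (chr8:10984681-11008458, minus strand), the adaptor that works beside IRS1 in liver, was at 2022 and 1850 in the controls and at 2357 and 2133 in Prox1 KO. Both Prox1 KO libraries lay above both controls, by 16.5% in pair 1 and 15.3% in pair 2, with a log2 fold change of 0.21 (SE 0.05).

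Irs4 (chrX:141710998-141725263, minus strand) is a further member of the family with a restricted pattern of expression, and it had the largest fold change and the fewest reads of the 10 genes. It held 21 and 8 reads in the controls against 44 and 32 in Prox1 KO, or 19.3 and 8.52 against 45.7 and 31.3 normalized counts. Both Prox1 KO libraries lay above both controls, and the ratio within pairs was 2.37 (95% exact interval 1.38 to 4.20) and 3.67 (1.66 to 9.23), for counting error only. The log2 fold change of 1.48 (SE 0.35) depended on the pseudocount, with 1.55 at 0.1 and 1.04 at 10. Per kilobase, Irs4 made up 0.470% and 0.229% of the summed adaptor level in the controls and 1.02% and 0.749% in Prox1 KO, so the sum was set by Irs1 and Irs2. That sum was 651 and 590 normalized counts per kilobase in the controls and 709 and 664 in Prox1 KO, a difference of 8.90% in pair 1 and 12.5% in pair 2. Irs1, Irs2 and Irs4 each overlap a gene on the opposite strand (Gm9747, 9530052E02Rik and Gm15295), which held no more than 6 reads in any library.

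**Figure D2:**
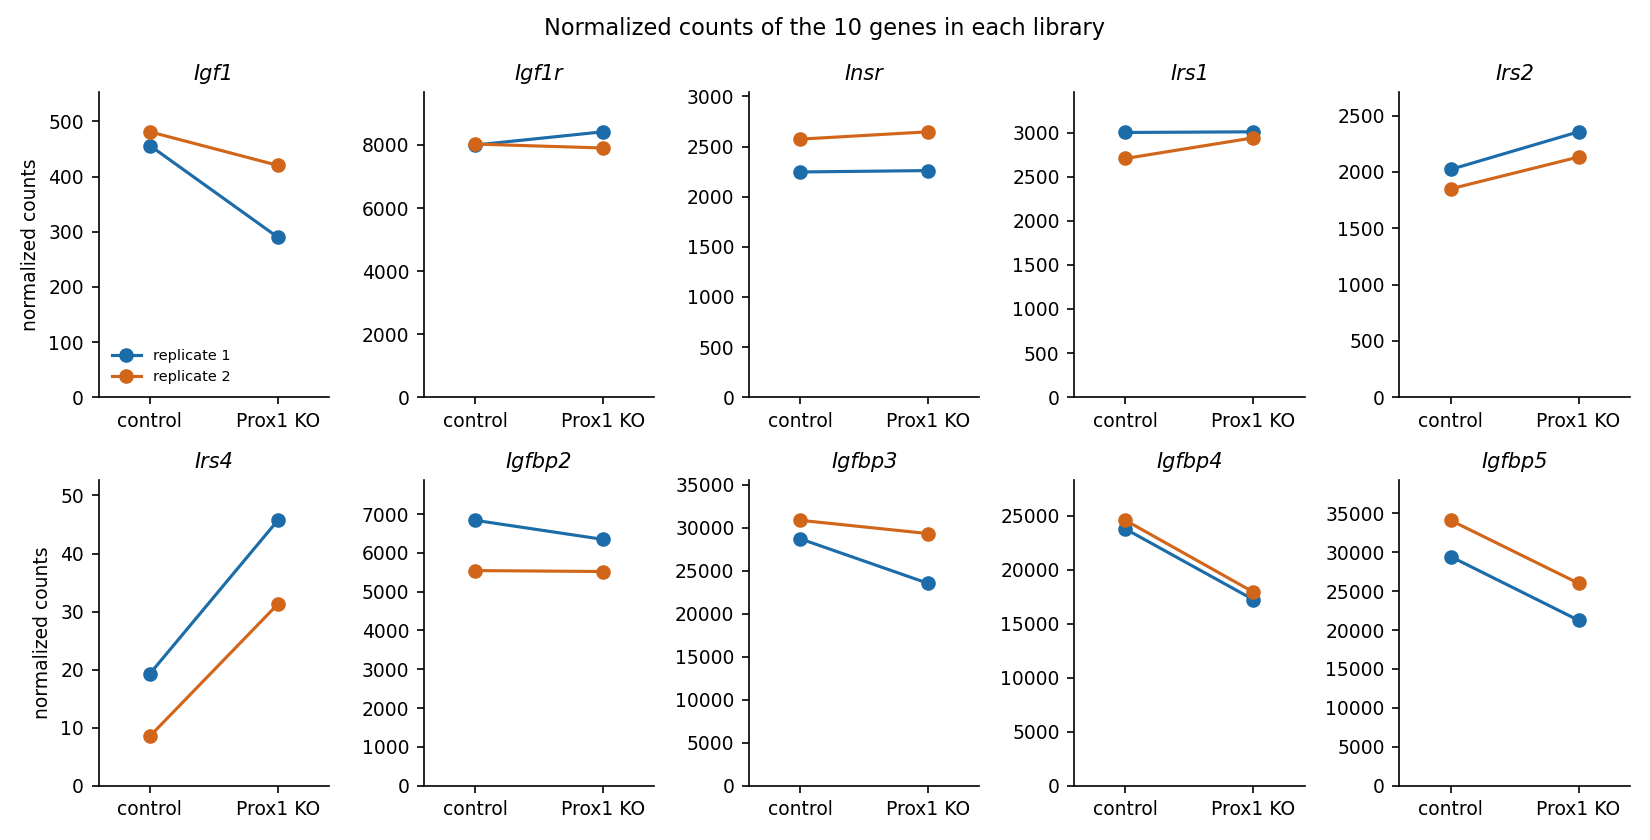
Normalized counts (axes from 0) of the 10 genes in control and Prox1 KO libraries, with a line joining the 2 libraries of the same replicate number. The lines of Igfbp4 and Igfbp5 fall in parallel, those of Irs2 and Irs4 rise in both replicates, and those of the receptors stay nearly flat.

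Igfbp4 and Igfbp5 showed the most even decrease. Igfbp4 (chr11:99041244-99054392, plus strand), a binding protein that is cleaved by the protease PAPPA to free IGF, was at 23757 and 24557 normalized counts in the controls and at 17217 and 17915 in Prox1 KO. Igfbp5 (chr1:72857932-72874884, minus strand), which binds extracellular matrix, was at 29442 and 34097 in the controls and at 21250 and 26003 in Prox1 KO. Both Prox1 KO libraries lay below both controls for either gene. The difference for Igfbp4 was −27.5% in pair 1 and −27.0% in pair 2, and its log2 fold change was −0.46 (SE 0.04). For Igfbp5 it was −27.8% and −23.7%, with a log2 fold change of −0.43 (SE 0.04).

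Igfbp3 (chr11:7206086-7213923, minus strand), the main carrier of IGF in serum, was at 28714 and 30864 normalized counts in the controls and at 23525 and 29320 in Prox1 KO. The conditions overlapped, since Prox1 KO replicate 2 lay above control replicate 1. The log2 fold change was −0.29 in pair 1 and −0.07 in pair 2, with −0.18 (SE 0.05) over both. Igfbp2 (chr1:72824503-72852474, plus strand), a binding protein made by fetal liver, was at 6838 and 5543 in the controls and at 6347 and 5519 in Prox1 KO. Its conditions overlapped, and the log2 fold change of −0.06 (SE 0.04) had a 95% interval from −9.75% to 2.41% of the control level.

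Summed per kilobase, the 4 binding proteins reached 23158 and 24100 in the controls and 18390 and 20742 in Prox1 KO, a difference of −20.6% in pair 1 and −13.9% in pair 2. Igfbp3 made up 39.6% and 40.9% of that sum in the controls and 40.9% and 45.2% in Prox1 KO. The summed receptors moved by 4.07% in pair 1 and −0.316% in pair 2. Igfbp2 and Igfbp5 are neighbours on chromosome 1, with their 3′ ends facing each other across 5457 bases, and their values within pairs were −27.8% and −23.7% for Igfbp5 and −7.18% and −0.432% for Igfbp2.

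**Figure D3:**
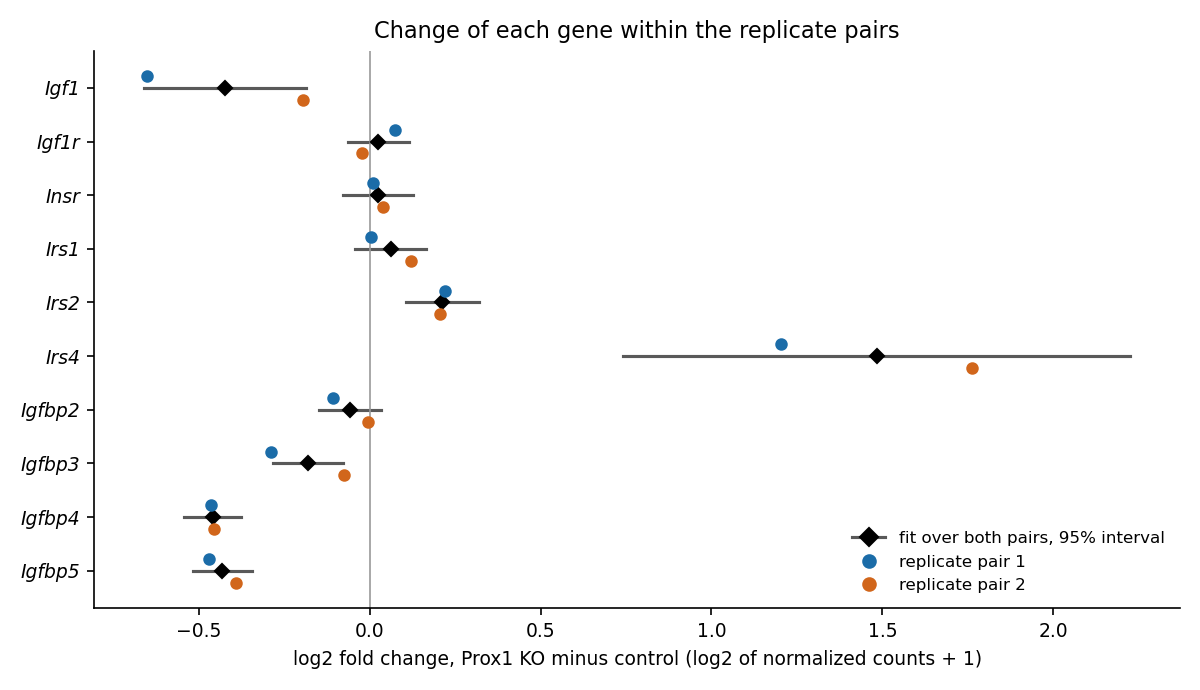
Log2 fold change of normalized counts + 1, Prox1 KO minus control, with circles for each replicate pair and diamonds with 95% intervals for the limma fit over both pairs. Igfbp4 and Igfbp5 sit at −0.46 and −0.43 with both pairs close together, whereas the pairs of Igf1 lie apart at −0.65 and −0.19.

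The difference between replicate numbers was not used to choose the genes and was tested in the same fit. Both terms of that fit share the standard error of a gene, so the replicate calls are not wholly independent of the choice. Of the 10 genes 4 differed between replicate 2 and replicate 1, where 7.88% of all genes tested did. Igfbp5 was higher in replicate 2 (log2 difference 0.25, SE 0.04, limma adjusted p = 0.000828), as were Insr (0.21, adjusted p = 0.0121) and Igfbp3 (0.21, adjusted p = 0.0116). Igfbp2 was lower in replicate 2 (−0.25, SE 0.04, limma adjusted p = 0.0013), in both conditions. Igfbp2 and Igfbp5, next to each other on the chromosome, thus differed in opposite directions between replicates. The other 6 genes did not pass, and limma adjusted p-values ranged from 0.123 for Igf1 to 0.641 for Igf1r. For Insr and Igfbp2 the log2 differences between replicates, 0.21 and −0.25, stood beside 0.02 and −0.06 between conditions. The libraries of replicate 1 held 13944 and 14495 normalized counts of Xist, the RNA that silences an X chromosome in female cells, against 1.06 and 4.89 in replicate 2. The labels do not state which MEF preparation each number stands for.

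Outside the 10 genes, 84 genes of the pathway were listed, 77 passed the filter, 4 were higher and 6 lower in Prox1 KO. That is 13.0% of those tested, beside 11.4% of all genes, and their median log2 fold change was 0.01. These lists were drawn up with earlier results of the data known. Each call in this paragraph and the next ones is from limma with adjustment over all 15809 genes, and each was lost when the replicate number was left out of the fit. Grb7, Socs3 and Akt2 were also called by DESeq2, and Ide, Gsk3b and Hras were lost after quantile normalization.

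In the extracellular list, which holds the ligands, further binding proteins and their proteases, 1 of 10 tested genes passed. Ide, the protease that degrades insulin, was higher by 0.17 on the log2 scale (SE 0.05, limma adjusted p = 0.0426), with 0.09 in pair 1 and 0.25 in pair 2. The genes of the list with the highest mean normalized counts, not scaled to length, were Igfbp7, a low-affinity relative of the binding proteins (log2 fold change −0.11, SE 0.04, limma adjusted p = 0.081), and Htra1, a protease that cleaves them (0.10, SE 0.05, limma adjusted p = 0.184), with Igfbp6 close behind Htra1. The insulin genes Ins1 and Ins2 held at most 2 reads. Igfbp1, the binding protein typical of hepatocytes, was under the filter, with 11 and 7 reads in the controls and 2 in each Prox1 KO library. It lies next to Igfbp3 on chromosome 11, with 3539 bases between them, and was picked out after its values were seen.

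At the receptors, 2 of 13 adaptors and inhibitors were lower and none was higher. Grb7, an SH2 adaptor, was at 192 and 327 normalized counts in the controls and at 127 and 132 in Prox1 KO. It fell in both pairs, by 0.59 in pair 1 and by 1.30 in pair 2 on the log2 scale (fit −0.95, SE 0.16, limma adjusted p = 0.00142). Socs3, a feedback inhibitor of cytokine and insulin signalling, fell by 0.32 (SE 0.05, limma adjusted p = 0.00112), from 1976 and 1996 to 1553 and 1639 normalized counts. Irs3, the fourth substrate gene of the mouse, held 94 and 77 reads in the controls and 66 and 54 in Prox1 KO and did not pass (−0.48, SE 0.21, limma adjusted p = 0.182).

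Among 28 genes of the PI3K, AKT, mTOR and FOXO branch 1 rose and 1 fell, and the median log2 fold change was 0.03. Akt2, the AKT isoform most tied to insulin action, fell by 0.20 (SE 0.04, limma adjusted p = 0.00399), with −0.18 in pair 1 and −0.23 in pair 2. Gsk3b, a kinase that AKT inhibits, rose by 0.17 (SE 0.04, limma adjusted p = 0.0224). In the RAS and MAPK branch, 2 of 15 genes rose and 1 fell. Braf, a kinase below RAS, rose by 0.19 (SE 0.05, limma adjusted p = 0.0296) and Hras by 0.16 (SE 0.04, limma adjusted p = 0.0319), although the Hras values of the conditions overlapped. Spry2, a feedback inhibitor of receptor tyrosine kinases, fell by 0.31 (SE 0.06, limma adjusted p = 0.0021), with both Prox1 KO libraries below both controls.

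Of 5 genes of the growth hormone axis, which drives Igf1 transcription in liver, 1 passed. The receptor Ghr was lower by a log2 value of −0.17 (SE 0.05, limma adjusted p = 0.0381), with −0.28 in pair 1 and −0.06 in pair 2. Its kinase Jak2 did not pass (0.09, SE 0.05, limma adjusted p = 0.277). Among insulin-responsive genes of liver metabolism 6 of 9 were tested and 1 passed. Pklr, the liver pyruvate kinase, was at 199 and 240 normalized counts in the controls and at 86.3 and 154 in Prox1 KO, with log2 fold changes of −1.20 in pair 1 and −0.63 in pair 2 (fit −0.91, SE 0.16, limma adjusted p = 0.00173). The lipid synthesis genes Fasn (0.07, limma adjusted p = 0.397) and Srebf1 (0.01, limma adjusted p = 0.958) did not pass. Pck1 and G6pc, enzymes of glucose production, were under the filter, with at most 2 reads in any library.

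**Figure D4:**
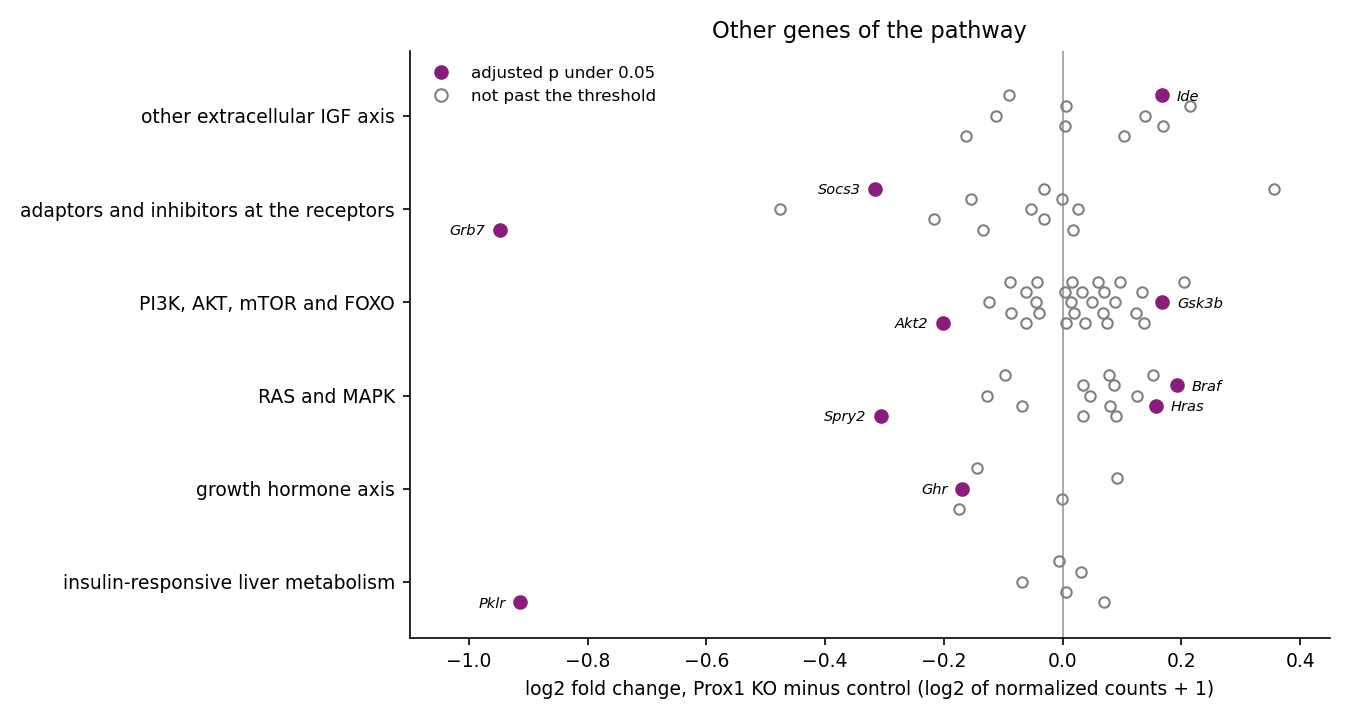
Log2 fold change of normalized counts + 1, Prox1 KO minus control, of the 77 tested pathway genes outside the 10 described, in 6 lists. Filled and named points passed limma's adjusted threshold, 4 of them higher and 6 lower, and Grb7 and Pklr lie farthest out at −0.95 and −0.91.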

How the data were processed

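Bulk RNA-seq of 4 libraries was analysed, 2 labelled Prox1 KO and 2 controls, grouped by the sample titles. According to the methods and the labels, stranded dUTP libraries were sequenced with paired reads of 100 bases, and the authors mapped them to mm10 with STAR and deposited normalized counts, a signal per gene made by dividing counts by DESeq2 size factors. The counting tool is not given in the sources used here. The authors' own comparison (shrunken fold changes and p-values) was not used. The steps between low values gave the size factors (0.939 to 1.09), and 100% of values were whole reads within 0.01 read.

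A gene was tested when its mean over the libraries reached 10 normalized counts (15809 of 55397). The two-sided test was limma 3.58.1 (R 4.3.3) with an intensity trend and a replicate block on the log2 scale after adding 1, with p-values adjusted by Benjamini-Hochberg over all genes tested and called under 0.05. Fold changes on this scale understate those of low genes. The intensity trend carried a prior weight of 14.2 degrees of freedom, more than 4 libraries can give. Standard errors, intervals and p-values of a gene therefore come mostly from the trend over all genes, and little from its own spread. The block follows the methods, where the MEF line of origin enters as a covariate. Deviations from the condition means correlated at 0.402 between libraries of one number, across genes, which are not independent. Same-condition libraries differed beyond sampling noise (chi-square) in 34.3% and 35.4% of genes, so none was counted as a duplicate. With 2 libraries per condition, the smallest two-sided p of an exact permutation test is 0.333. Intervals of read ratios are exact at 95% and cover counting error only.

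The 10 members and the gene lists were chosen with earlier results of these data known. The genes named were the members, Prox1, and in each pathway list the called genes with the largest change, up to 4, and, where fewer than 2 were called, the 2 with the highest mean normalized counts. Igfbp1, Igfbp6 and Irs3 were named outside this rule, after their values were seen. Marker genes are reported by list, and some values of listed genes are not reported here. Positions and lengths are from GENCODE vM21 on GRCm38, which 55137 identifiers matched. Sequences before gene starts are from RefSeq on GRCm38.p6. Alternatives were no block, pseudocounts of 0.1 and 10, no filter or a mean of at least 50, quantile-normalized values, recovered reads in edgeR 4.0.16 or DESeq2 1.42.0, and each replicate left out. The scripts were tested on simulated data.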

Additional observations from a re-analysis of the deposited data

How the results depend on the processing

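Of the 10 members 6 were called in the comparison of conditions. Without the replicate block limma called 0 of them (4 at an unadjusted p under 0.05), 0 of the 77 other pathway genes (7 unadjusted) and 0 of all genes (1783 unadjusted), against 1798 with the block. DESeq2 with the block called 2 members, Igfbp4 and Igfbp5, and 3 other pathway genes, Grb7, Socs3 and Akt2, with 483 calls over all genes, and gave Irs4 no adjusted p. The other settings, other pseudocounts and filters, quantile normalization and edgeR, called 4 to 6 members and 7 to 14 other pathway genes. Under quantile normalization Igf1, Igfbp3, Ide, Gsk3b and Hras no longer passed, the last 3 with adjusted p-values of 0.0876, 0.0657 and 0.0598 from limma. The replicate difference held for 3 to 5 members in all settings that could be run.

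From 1 pair alone the log2 fold change of Igf1r ranged from −0.0226 to 0.0738, that of Fasn from −0.0288 to 0.168 and that of Srebf1 from −0.0382 to 0.0494, and Srebf1 was at −0.00733 under quantile normalization. With the block, leaving out a library leaves no spread to test against, so counts of calls could not be given that way. Of 99 values for members under the alternatives, 94 kept their sign and moved by less than a spread set from the standard error. Leaving out the block or changing the filter cannot alter a fold change, so those values were fixed in advance. All exceptions came from 1 pair alone: 4 values moved further, those of Igf1 and Igfbp3 in either pair, and that of Igf1r changed sign without replicate 1. With 2 libraries per condition and 8 to 44 reads per library, the size of the Irs4 difference is the least certain of those reported.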
